A study of Mus musculus with 10 samples.

Results

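The genes described here are 8 genes of the erythroblastic island, taken by symbol from the 55414 rows of a table of read counts per gene. They are Vcam1, Itga4 and Itgb1, which form one adhesion pair between macrophage and erythroblast, Icam4 and Itgav, which form another, the attachment gene Maea, the nuclease gene Dnase2a and the erythropoietin receptor gene Epor. RNA sequencing of polyadenylated RNA was done on cells enriched from mouse spleen with magnetic beads against F4/80, a surface protein of mature macrophages. There were 5 libraries of genotype Fpr2KO, written as Fpr2-/- in the design text, in which formyl peptide receptor 2 is deleted, and 5 libraries of genotype C57BL/6N, called WT. No treatment, age or sex is stated for either group, and neither a Cre driver nor the background strain of the knockout. Whether replicates came from separate animals is not stated either, so the p-values rest on a spread that may be technical.

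In an erythroblastic island a central macrophage holds maturing red cell precursors, supplies them and takes up the nuclei that they expel. In the mouse such islands form in bone marrow and also in the red pulp of the spleen. The macrophage displays VCAM-1, and the erythroblast binds it through the integrin of alpha-4 and beta-1 subunits. ICAM-4 on the erythroblast binds alpha-V integrins on the macrophage, and DNase II in macrophage lysosomes digests the DNA of the nuclei.

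The libraries held between 15865820 and 19060188 counts, and 14669 genes were tested. The Fpr2KO libraries held 0 Fpr2 reads each, against 19.2 to 33.6 CPM (a count scaled to the size and composition of its library) in the WT libraries. Fpr2KO libraries 4 and 5 stood apart in the share of counts on genes annotated as antisense, 0.242% and 0.194%, against 0.105% to 0.142% in the other 8 libraries. The mitochondrial share was 3.99%, 6.04%, 3.85%, 3.57% and 3.22% in Fpr2KO libraries 1 to 5. In WT libraries 1 to 5 it was 6.09%, 5.74%, 5.6%, 4.83% and 5.28%. Every Fpr2KO library except library 2 therefore lay below every WT library, and the cause was not tested. All 15 red pulp macrophage markers were detected, among them Csf1r, Hmox1 and Slc40a1, with a summed level of 7925 to 10100 CPM in Fpr2KO libraries and 7943 to 10210 CPM in WT libraries. The isolates were not pure: 9 B cell markers, led by Ighm, summed to 13240 to 34480 CPM in Fpr2KO libraries and 19820 to 43870 CPM in WT libraries. In such bulk samples, fewer cells of a type and less RNA per cell cannot be told apart.

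By edgeR's quasi-likelihood test, 0 of the 8 genes were past the threshold of 0.05 on the false discovery rate (FDR), which is adjusted over all genes tested. Of all genes, 0.0682% were past it, 0.00682% higher and 0.0614% lower in Fpr2KO. At an unadjusted p under 0.05, 3 of the 8 genes were past the threshold, against 9.8% of all genes. DESeq2 called 1 of the 8 at an adjusted p under 0.05, Icam4, and 185 of 14652 genes in all (1.26%). The 3 genes past the unadjusted threshold were Icam4 and Epor with higher estimates in Fpr2KO, where 4.88% of all genes were higher, and Itga4 with a lower one, where 4.92% were lower. The log2 fold change was above 0 for 3 of the 8 genes and for 53.2% of all genes. The other 5 genes, Vcam1, Itgb1, Itgav, Maea and Dnase2a, had fold changes between 0.908 and 1.01. All 8 genes passed the filter on low counts. Icam4 passed it through the Fpr2KO group, since 5 Fpr2KO libraries and 1 WT library reached the cutoff of 0.571 CPM, so the high side of its difference was a condition of its being tested.

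**Figure D1:**
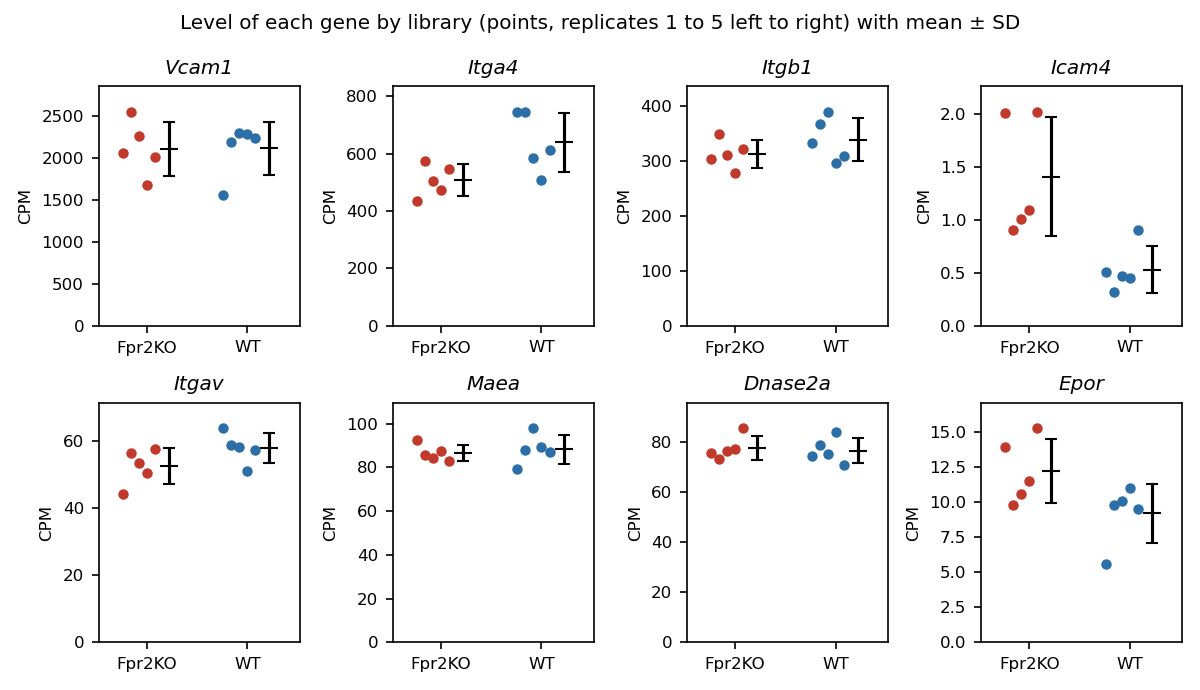
Level of each of the 8 genes in CPM (vertical axes, from 0) in the 5 Fpr2KO and the 5 WT libraries, with points for replicates 1 to 5 from left to right and the mean with its SD beside them. Icam4 is the gene whose groups do not overlap, while WT replicate 1 lies far below the other WT libraries for Vcam1 (1558 CPM) and Epor (5.6 CPM).

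Set per kilobase of exon, merged over all annotated transcripts, the levels spanned from 238.7 CPM per kilobase for Vcam1 to 0.876 for Icam4, as means of the 10 libraries. The order between genes depends on these lengths, such as 13978 bases for Itga4 and 4081 for Itgb1. Without them Itga4 averaged above Itgb1, at 506.8 against 312.5 CPM in Fpr2KO and 639.3 against 338.6 CPM in WT. Vcam1 stood above Itgb1 (79.8 CPM per kilobase) in 10 of 10 libraries, and Itgb1 above Itga4 (41.0) in 10 of 10. Itga4 lay above Maea (33.3 CPM per kilobase) in 9 of 10 libraries, so these neighbours were not fully separated. Dnase2a followed at 14.3 CPM per kilobase. Epor (5.38 CPM per kilobase) and Itgav (5.15) had no common order. Epor was the higher in 4 of 5 Fpr2KO libraries, where the means were 6.14 for Epor and 4.90 for Itgav, and in 1 of 5 WT libraries, where they were 4.63 for Epor and 5.40 for Itgav. Icam4 lay below Itgav in every one of the 10 libraries.

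**Figure D2:**
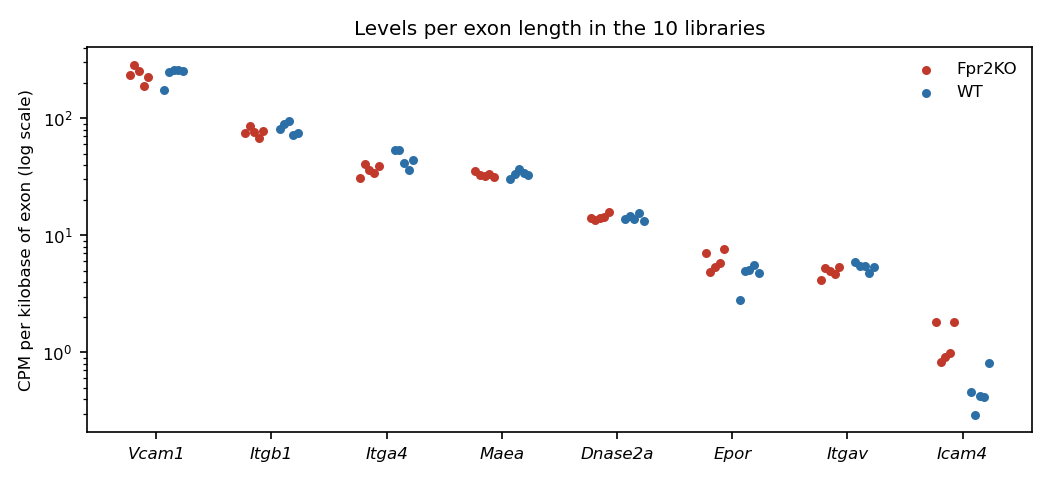
Level of each gene per kilobase of merged exon (vertical axis, CPM per kilobase, log scale) in the Fpr2KO libraries (left of each pair) and the WT libraries (right), ordered by the mean over 10 libraries. Vcam1 is highest at 238.7, Icam4 lowest at 0.876, and Epor and Itgav overlap.

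Vcam1 (ENSMUSG00000027962, chromosome 3, 116109949 to 116129688, minus strand of GRCm38) encodes the macrophage-side adhesion molecule of the island and is also made by endothelial and stromal cells. It was measured at 2064, 2557, 2263, 1679 and 2017 CPM in Fpr2KO libraries 1 to 5, and at 1558, 2192, 2301, 2296 and 2246 CPM in WT libraries 1 to 5. The groups overlapped over nearly their whole range, with WT library 1 and Fpr2KO library 4 the lowest of the 10. The means were 2116 ± 323.8 CPM in Fpr2KO and 2119 ± 316.7 CPM in WT (SD, n = 5 each). The fold change was 0.999 with a 95% interval of 0.827 to 1.21 (FDR = 0.997 by edgeR). WT library 1 and Fpr2KO library 4 also had the lowest mean log2 CPM over red pulp macrophage markers of their own groups, 8.55 in Fpr2KO library 4 and 8.56 in WT library 1, against 8.78 to 8.87 in the other Fpr2KO libraries and 8.60 to 8.93 in the other WT libraries. WT library 5 was close to WT library 1 in this mean, at 8.60, yet had 2246 CPM of Vcam1. Without WT library 1 and Fpr2KO library 4, Vcam1 had r = -0.088 with this mean within genotypes. Endothelial markers summed to 411.3 to 469.3 CPM in Fpr2KO libraries and 394.5 to 473 CPM in WT libraries, and stromal markers to 32.4 to 52.0 CPM in Fpr2KO and 36.0 to 46.4 CPM in WT. Their part in the level of Vcam1 was not tested.

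Itga4 (ENSMUSG00000027009, chromosome 2, 79255426 to 79333123, plus strand) encodes the integrin alpha-4 subunit, which erythroblasts as well as lymphocytes and monocytes carry. Its level was 434.1, 574.1, 505.1, 474 and 546.6 CPM in Fpr2KO libraries 1 to 5, and 746, 743.8, 583.6, 509.1 and 613.9 CPM in WT libraries 1 to 5. WT libraries 1 and 2 were the highest and Fpr2KO library 1 the lowest, and the groups overlapped through WT library 4. Itga4 averaged 506.8 ± 55.8 CPM in Fpr2KO and 639.3 ± 103.7 CPM in WT (SD, n = 5 each), and edgeR estimated its log2 fold change as -0.335 (SE 0.115), with an unadjusted p of 0.0115 and FDR = 0.377. That estimate is 0.793-fold with a 95% interval of 0.668 to 0.941, and it did not pass over all genes. With the erythroid marker score described further on as a covariate, the unadjusted p was 0.139 (log2 fold change -0.287, FDR = 0.999 by edgeR). Of its exonic bases, 8.04% lie under exons of Cerkl on the other strand, whose reads were 51 to 222 per library in Fpr2KO and 48 to 111 in WT.

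Markers of the cell types went in different directions beside Itga4. Those of 2 myeloid cell types, neutrophils and classical monocytes, had lower estimates in Fpr2KO. Of these, only monocytes were named above as carriers of alpha-4. Among the other carriers of alpha-4 named above, 8 of 9 B cell genes, 8 of 9 T cell genes and all 21 erythroid genes tested had higher estimates. All 13 neutrophil genes tested had lower estimates in Fpr2KO, 8 of them at an unadjusted p under 0.05 and 0 past the FDR by edgeR, and their summed level was 536 to 994.7 CPM in Fpr2KO libraries and 942.6 to 1566 CPM in WT libraries. The mean log2 CPM of the neutrophil list was 4.08 in Fpr2KO and 4.64 in WT, a difference of -0.56 (SE 0.12, n = 5 each), with every Fpr2KO library below every WT library. The two-sided exact permutation test gave p = 0.00794, the smallest that 5 against 5 libraries allow, and an adjusted p of 0.0397 over 10 marker lists. The lists were chosen with earlier results of these data known, so the permutation p-values of this paragraph are descriptive and no independent test. All 8 classical monocyte genes had lower estimates, 6 at an unadjusted p under 0.05 and 0 past the FDR by edgeR, summing to 673.4 to 925.6 CPM in Fpr2KO and 937.5 to 1459 CPM in WT. Their mean log2 CPM differed by -0.70 (SE 0.18, n = 5 each), with overlapping groups, an exact permutation p of 0.0159 and an adjusted p of 0.053. No gene of the neutrophil and classical monocyte lists was at 0 in all libraries. The part of any of these cell types in the Itga4 difference was not tested.

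Itgb1 (ENSMUSG00000025809, chromosome 8, 128685654 to 128733200, plus strand) encodes the beta-1 subunit, the partner of alpha-4 and of many other alpha subunits. It stood at 304.1, 348.4, 310.7, 278.4 and 320.8 CPM in Fpr2KO libraries 1 to 5, and at 332.1, 367.6, 389.3, 296 and 308.1 CPM in WT libraries 1 to 5. The groups overlapped, and the estimate of -0.12 on the log2 scale (SE 0.09) lay within the spread between replicates, with FDR = 0.703 by edgeR (n = 5 each). Per kilobase, the ratio of Itga4 to Itgb1 was 0.473 ± 0.033 in Fpr2KO and 0.554 ± 0.085 in WT (SD, n = 5 each). It ran from 0.417 to 0.497 in Fpr2KO libraries and from 0.438 to 0.656 in WT libraries, which overlap. This ratio was chosen after its values were seen and was given no test, and its size depends on the merged exon lengths.

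Icam4 (ENSMUSG00000001014, chromosome 9, 21029373 to 21030595, plus strand) encodes the erythroblast-side adhesion molecule, a red cell protein that in human carries the Landsteiner-Wiener blood group. It was read rarely, 31, 15, 17, 20 and 41 counts in Fpr2KO libraries 1 to 5, and 8, 6, 8, 8 and 16 counts in WT libraries 1 to 5. The CPM values were 2.02, 0.909, 1.01, 1.09 and 2.03 in Fpr2KO, and 0.509, 0.324, 0.469, 0.457 and 0.908 in WT. Every Fpr2KO library lay above every WT library, although Fpr2KO library 2 and WT library 5 nearly touched. Icam4 was the 1 gene of the 8 whose groups did not overlap with Fpr2KO above, as did those of 0.825% of all genes tested, and 0 of the 8 lay apart with Fpr2KO below, against 0.566% (1.39% in either direction). Its means were 1.41 ± 0.561 CPM in Fpr2KO and 0.533 ± 0.221 CPM in WT (SD, n = 5 each), a 2.63-fold estimate with a 95% interval of 1.56 to 4.43. By edgeR the log2 fold change was 1.40 (SE 0.35, unadjusted p = 0.00133, FDR = 0.19), which did not pass. DESeq2, run on the same filtered genes, gave the same log2 fold change of 1.40 with an adjusted p of 0.0484. With no filter on low counts, edgeR gave 1.39 with FDR = 0.112. Icam4 had passed the filter through Fpr2KO, its high side, so neither the gap between groups nor the DESeq2 call is free of that condition. Over its alternatives the adjusted p ran from 0.0484 to 0.999.

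All exonic bases of Icam4 (100%) lie under exons of Gm47079, a gene on the other strand that is also in the table. Gm47079 held 15, 2, 5, 56 and 30 counts in Fpr2KO libraries 1 to 5, and 0, 3, 4, 15 and 13 counts in WT libraries 1 to 5. No source used here states the strand setting of the counting. Whether it told reads of the 2 genes apart is therefore not known, and the Icam4 counts may be incomplete. Of 34 coding genes wholly covered in this way, 8 held at least 100 counts over the 10 libraries, with 2991 the highest, and 10 held none. Without Fpr2KO libraries 4 and 5, in which Gm47079 was read most, the log2 fold change of Icam4 was 1.28 (unadjusted p = 0.00838, FDR = 0.393 by edgeR).

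Itgav (ENSMUSG00000027087, chromosome 2, 83724397 to 83806916, plus strand) encodes the integrin alpha-V subunit, which on macrophages can bind ICAM-4. Its level was 44.3, 56.7, 53.7, 50.6 and 57.9 CPM in Fpr2KO libraries 1 to 5, and 64.0, 59.0, 58.2, 51.3 and 57.5 CPM in WT libraries 1 to 5. Fpr2KO library 1 was the lowest, WT library 1 the highest, and the other 8 libraries were intermixed. The estimate of -0.14 on the log2 scale (SE 0.09) had FDR = 0.628 by edgeR and lay within the spread, with a 95% interval of the fold from 0.798 to 1.03.

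Maea (ENSMUSG00000079562, chromosome 5, 33335509 to 33373296, plus strand) encodes the macrophage erythroblast attacher, a protein of both cell types that is also a subunit of the CTLH ubiquitin ligase. Its level was 92.6, 85.9, 84.4, 87.4 and 82.8 CPM in Fpr2KO libraries 1 to 5, and 79.4, 88.0, 97.9, 89.3 and 86.9 CPM in WT libraries 1 to 5. All Fpr2KO values fell inside the range of the WT values. The fold change was 0.981 with a 95% interval of 0.881 to 1.09 (FDR = 0.92 by edgeR). Maea had the smallest relative spread of the 8 genes in Fpr2KO, where the SD was 4.36% of the mean.

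Dnase2a (ENSMUSG00000003812, chromosome 8, 84908560 to 84922915, plus strand) encodes the acid DNase of lysosomes. It was measured at 75.3, 73.0, 76.3, 77.2 and 85.4 CPM in Fpr2KO libraries 1 to 5, and at 74.2, 78.6, 75.0, 83.9 and 70.9 CPM in WT libraries 1 to 5. The groups were intermixed, with a fold change of 1.01 and a 95% interval of 0.909 to 1.13 (FDR = 0.958 by edgeR). Exons of Mast1 on the other strand cover 29.99% of its exonic bases. Mast1 was read 27 to 55 times per library in Fpr2KO and 20 to 36 times in WT, against 1158 to 1728 counts of Dnase2a in Fpr2KO and 1166 to 1470 in WT.

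Epor (ENSMUSG00000006235, chromosome 9, 21958897 to 21963506, minus strand) encodes the receptor for erythropoietin, carried by erythroid progenitors and also described on island macrophages in mouse. It was measured at 13.9, 9.76, 10.6, 11.5 and 15.3 CPM in Fpr2KO libraries 1 to 5, and at 5.6, 9.78, 10.1, 11.02 and 9.54 CPM in WT libraries 1 to 5. Fpr2KO libraries 1 and 5 were the highest and WT library 1 the lowest, and the other 7 libraries lay together between 9.54 and 11.5 CPM. Epor averaged 12.2 ± 2.31 CPM in Fpr2KO and 9.20 ± 2.09 CPM in WT (SD, n = 5 each), and edgeR estimated its log2 fold change as 0.41 (SE 0.18), with an unadjusted p of 0.0358 and FDR = 0.473. As a fold this is 1.33 with a 95% interval of 1.02 to 1.72, and it did not pass over all genes. Without WT library 1 the log2 fold change was 0.27 (unadjusted p = 0.0851, FDR = 0.728 by edgeR), and without Fpr2KO libraries 4 and 5 it was 0.305 (unadjusted p = 0.155, FDR = 0.767 by edgeR). The unadjusted p was also above 0.05 without WT library 5 (0.0537), Fpr2KO library 1 (0.0899) or Fpr2KO library 5 (0.106) by edgeR.

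**Figure D3:**
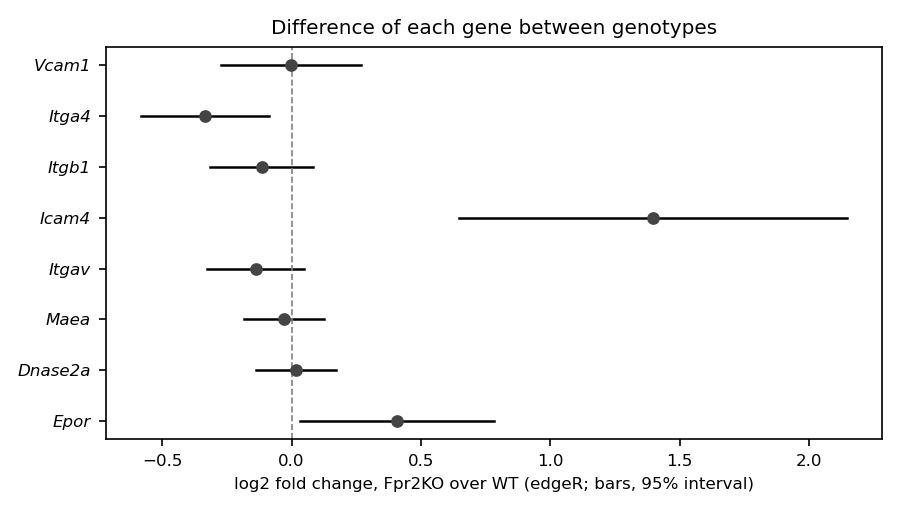
Log2 fold change of each gene, Fpr2KO over WT (horizontal axis), by edgeR, with bars for the 95% interval and a dashed line at 0. The intervals of Icam4 and Epor lie above 0 and that of Itga4 below it, none of the 8 past the FDR, and those of the other 5 genes span 0.

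The 250 bases before the RefSeq start (GRCm38.p6) are shown for the 2 genes with the highest estimates, Icam4 and Epor, read 5′ to 3′ on the strand of the gene. Capitals mark matches, on either strand, to motifs that GATA factors of erythroid cells are known to bind, which were searched as AGATAA, with its relative AGATAG, as well as TGATAA, with its relative TGATAG. They also mark CACCC, which erythroid Krüppel-like factors are known to bind. The first window is chr9:21029182-21029431 on the plus strand and the second chr9:21963577-21963826 on the minus strand.
Icam4: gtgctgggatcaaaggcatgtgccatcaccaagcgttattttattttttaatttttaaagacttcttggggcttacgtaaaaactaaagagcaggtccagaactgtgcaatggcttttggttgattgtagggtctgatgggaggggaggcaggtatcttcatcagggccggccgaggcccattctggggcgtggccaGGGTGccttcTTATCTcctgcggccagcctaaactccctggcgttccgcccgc
Epor: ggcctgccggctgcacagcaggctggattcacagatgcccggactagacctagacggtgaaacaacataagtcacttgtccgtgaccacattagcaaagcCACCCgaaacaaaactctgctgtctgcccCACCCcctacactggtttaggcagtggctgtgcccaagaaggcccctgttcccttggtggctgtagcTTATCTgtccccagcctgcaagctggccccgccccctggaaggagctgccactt
Both windows held 1 GATA match, AGATAA on the opposite strand (printed as TTATCT), at -43 to -38 in Icam4 and -54 to -49 in Epor, counted from the base before the start as -1. Icam4 also held 1 CACCC match and Epor 2, none overlapping the GATA match. The RefSeq starts differ from the gene bounds given above, 21029373 for the start of Icam4 and 21963506 for that of Epor. By those bounds the matches of Icam4 lie inside the gene, and those of Epor before it. Promoters of 6 of the 8 genes were in the table. Those of Itga4, Itgb1, Itgav and Dnase2a held no GATA match in this window and between 1 and 4 CACCC matches. Of 32817 promoter windows of the same length, 26.6% held a GATA match, 52% a CACCC match and 11.8% both. These matches describe letters and say nothing of binding.

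Erythroid markers moved in the same direction as Icam4 and Epor. All 21 erythroid genes tested had higher estimates in Fpr2KO and 21 were at an unadjusted p under 0.05, while 0 passed the FDR by edgeR, and their median log2 fold change was 1.64, against 0.0129 over all genes tested. Ahsp, a further gene of the list, had no match in the annotation. Their summed level, most of it globin transcripts such as Hbb-bs and Hba-a1 (near-identical copies among which reads may be split), was 4822 to 11360 CPM in Fpr2KO libraries and 1679 to 6734 CPM in WT libraries, with no marker at 0 in all libraries. The mean log2 CPM of the list was 5.72 in Fpr2KO and 3.95 in WT, a difference of 1.77 (SE 0.57, n = 5 each). This score was higher in 5 of 5 Fpr2KO libraries than in any WT library. The groups nearly touched, with 5.105 in Fpr2KO library 4 and 5.03 in WT library 5. Without WT library 3, which had the lowest score, the difference was 1.3. As for the neutrophil list, the exact permutation p was 0.00794 and the adjusted p 0.0397 over 10 marker lists, and these were the 2 lists past an adjusted 0.05. All lists were chosen with earlier results of these data known, so these p-values are descriptive and no independent test. Tfr2, a partner of the erythropoietin receptor and itself an erythroid gene, was measured at 1.74 ± 0.181 CPM in Fpr2KO and 0.716 ± 0.258 CPM in WT (SD, n = 5 each, FDR = 0.112 by edgeR). WT libraries 3 (0.469 CPM) and 5 (0.568 CPM) lay below the filter cutoff of 0.571 CPM. Every Fpr2KO library lay above it, at 1.53 CPM or more. As for Icam4, the high side of the Tfr2 difference was therefore a condition of its being tested.

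With the erythroid score as a covariate, the log2 fold change was 0.90 for Icam4 (unadjusted p = 0.108, FDR = 0.999 by edgeR) and 0.40 for Epor (unadjusted p = 0.158, FDR = 0.999 by edgeR). Because the score itself separated the genotypes, genotype and erythroid content cannot be told apart in these libraries. Within genotypes, 16 relations of the 8 genes with the erythroid and the red pulp macrophage scores were computed on deviations from group means over 10 libraries, and none passed after adjustment. Icam4 had r = 0.38 with the erythroid score (permutation p = 0.276, adjusted p = 0.631) and Spearman's rho = 0.43 (permutation p = 0.254, adjusted p = 0.568), with r = 0.30 after leaving out WT libraries 3 and 5. Epor had r = -0.013 with it (permutation p = 0.975, adjusted p = 0.995) and rho = -0.006 (permutation p = 1), with r = 0.19 without the same 2 libraries. WT library 3 held the lowest erythroid score of the 10 libraries, 2.05, and an Epor level of 10.1 CPM that was the second highest in WT. With the red pulp macrophage score Epor had r = 0.60 (permutation p = 0.0761, adjusted p = 0.517) and rho = 0.70 (permutation p = 0.0142, adjusted p = 0.227), with r = 0.32 without Fpr2KO library 4 and WT library 1. Vcam1 had r = 0.68 with the macrophage score (permutation p = 0.0358, adjusted p = 0.517) and rho = 0.54 (permutation p = 0.114, adjusted p = 0.568), which rested on those same 2 libraries, since r was -0.088 without them.

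**Figure D4:**
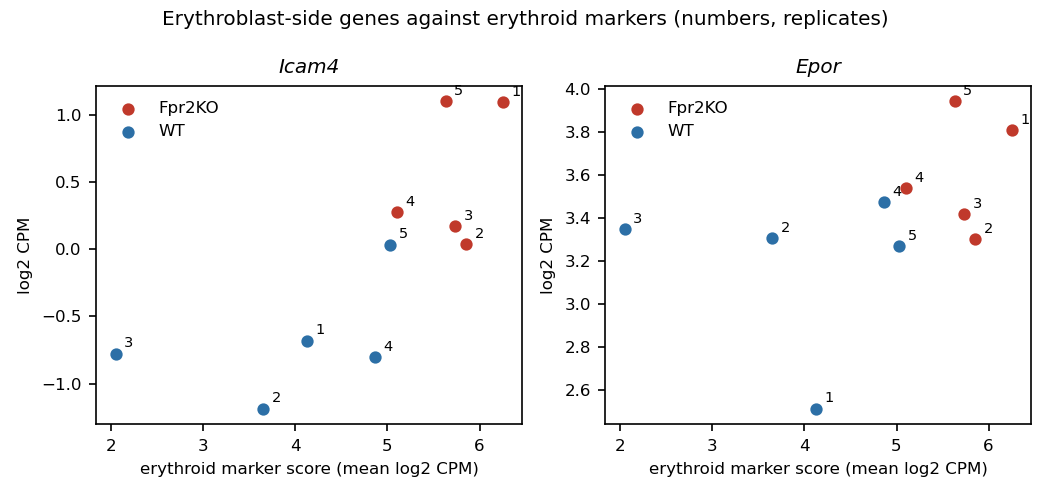
Level of Icam4 and of Epor (vertical axes, log2 CPM) against the erythroid marker score of the same library (horizontal axis, mean log2 CPM of 21 genes), with the replicate number beside each point, Fpr2KO in red and WT in blue. The Fpr2KO libraries lie to the right of every WT library, and WT replicate 3, with the lowest score of 2.05, has an Epor level inside the range of the others.

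Among the 8 genes themselves, 28 pairs were compared on deviations from group means over 10 libraries, and 1 passed after adjustment. The alpha subunits Itga4 and Itgav went together (r = 0.86, permutation p = 0.00041, adjusted p = 0.0115), with Spearman's rho = 0.87 (permutation p = 0.00067, adjusted p = 0.0188) and r = 0.78 without WT libraries 4 and 1. Both were lowest within WT in library 4 and lowest within Fpr2KO in library 1. Itga4 and its partner Itgb1 had r = 0.52 (permutation p = 0.186, adjusted p = 0.579) and rho = 0.47 (permutation p = 0.246, adjusted p = 0.733). Vcam1 and Itga4, ligand and receptor, had r = -0.18 (permutation p = 0.671, adjusted p = 0.924) and rho = -0.28 (permutation p = 0.463, adjusted p = 0.864). Icam4 and Itgav, the other ligand and receptor, had r = -0.21 (permutation p = 0.605, adjusted p = 0.924) and rho = -0.10 (permutation p = 0.791, adjusted p = 0.927).

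For each of the 8 genes, up to 3 of the coding genes most like it by the same deviations are named, from 9349 candidates, as a description of these 10 libraries with no test. Those of Vcam1 were Fcgr1 (r = 0.958), Pparg (0.942) and Parp12 (0.935). Those of Itga4 included Zfc3h1 (r = 0.984) and Zfp871 (0.976), and those of Itgb1 were Tmem135, Antxr2 and Cdk14, from 0.943 to 0.959. Icam4 had the least like neighbours, Gm10130, Pigq and Zfp358, from 0.841 to 0.905. Those of Itgav included Gm10521 (r = 0.973) and Slc25a16 (0.967). For Maea they were Mgat2, S100a10 and the red pulp macrophage gene Cd5l, from 0.918 to 0.959. For Dnase2a they were Asb2, Traf1 and Fam234b, from 0.950 to 0.983, and those of Epor included Ubqln4 (0.964) and Tgm1 (0.936).

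The surrounding pathways were described with 6 lists of 106 genes, of which 94 were tested. Of these 94, 0 passed the FDR by edgeR in either direction, and at an unadjusted p under 0.05 there were 5 higher (5.32%) and 10 lower (10.6%), against 4.88% and 4.92% of all genes. Among 23 genes of island macrophages, 0 passed, 1 was higher and 3 lower at the unadjusted threshold, and the median log2 fold change was -0.03, against 0.01 over all genes. Cd163, the haemoglobin scavenger receptor, was measured at 382.9 ± 23.0 CPM in Fpr2KO and 278.7 ± 39.8 CPM in WT (SD, n = 5 each), with the groups apart and FDR = 0.135 by edgeR. It is 1 of the genes that this list shares with the red pulp macrophage markers, as is Siglec1. Siglec1, the sialic acid receptor CD169 of island macrophages, was measured at 34.9 ± 7.08 CPM in Fpr2KO and 53.9 ± 10.2 CPM in WT (FDR = 0.185 by edgeR). Emb (log2 fold change -0.41, FDR = 0.192 by edgeR) and Klf4 (-0.27, FDR = 0.482) came next.

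In the list of other alpha-4 and beta-1 partners and ligands, 18 of 20 genes were tested. Of these, 0 passed, 0 were higher and 2 lower at the unadjusted threshold, with a median of -0.11. The list also held Itgad (log2 fold change 0.06), whose alpha-D subunit pairs with beta-2 and not with beta-1. Fibronectin (Fn1), a further ligand of the alpha-4 integrin and also a gene of the classical monocyte list, averaged 194.0 ± 70.2 CPM in Fpr2KO and 339.7 ± 93.1 CPM in WT (FDR = 0.359 by edgeR). Itga6, Tln1 (talin) and Itga5 had log2 fold changes of -0.40, -0.17 and -0.33, with FDR of 0.405 to 0.556 by edgeR. Of the alpha-V and ICAM partners, 10 of 13 genes were tested, 0 passed, 0 were higher and 3 lower at the unadjusted threshold, with a median of -0.17. Thbs1 (thrombospondin, a ligand of alpha-V integrin) averaged 58.2 ± 18.7 CPM in Fpr2KO and 116.2 ± 15.6 CPM in WT, with the groups apart and FDR = 0.15 by edgeR. Itgam, Itgal and Itgb2, integrin subunits of leukocytes, had log2 fold changes of -0.57, -0.24 and -0.18 (FDR of 0.209 to 0.53 by edgeR). Itgb6 was at 0 in all libraries.

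All 10 other subunits of the CTLH complex of Maea were tested, 0 passed, 1 was higher and 0 lower at the unadjusted threshold, with a median of -0.04. The 1 was Ranbp10 at 71.1 ± 7.56 CPM in Fpr2KO and 59.1 ± 4.94 CPM in WT (SD, n = 5 each, FDR = 0.342 by edgeR). Its relative Ranbp9 had a log2 fold change of -0.18, and Mkln1 and Ypel5 -0.13 and -0.10, none past an unadjusted p of 0.05. Around Dnase2a, 12 of 17 genes of DNA digestion and sensing were tested, and 0 passed the FDR by edgeR or an unadjusted p of 0.05. The 4 smallest p-values there were those of Lmnb1 (log2 fold change -0.19), Ifi204 (-0.35), Dnase1l1 (-0.16) and Aim2 (-0.14). Trex1 was listed at 0 in all libraries. Its overlap with genes on its own strand was not examined, so this 0 need not mean that it was absent.

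Around Epor, 21 of 23 signalling genes were tested, 0 passed, and 3 were higher and 2 lower at the unadjusted threshold, with a median of -0.03. The 3 were Tfr2, whose testing rested on its Fpr2KO side as given above, Bcl2l1 and Socs2. The survival gene Bcl2l1 averaged 21.8 ± 5.37 CPM in Fpr2KO and 15.4 ± 3.49 CPM in WT (FDR = 0.395 by edgeR). The feedback inhibitor Socs2 averaged 17.1 ± 2.48 CPM in Fpr2KO and 13.5 ± 2.61 CPM in WT (FDR = 0.457 by edgeR). Socs3, another feedback inhibitor, averaged 82.9 ± 19.4 CPM in Fpr2KO and 121.6 ± 37.3 CPM in WT (FDR = 0.43 by edgeR). Epo itself was at 0 in all libraries.

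**Figure D5:**
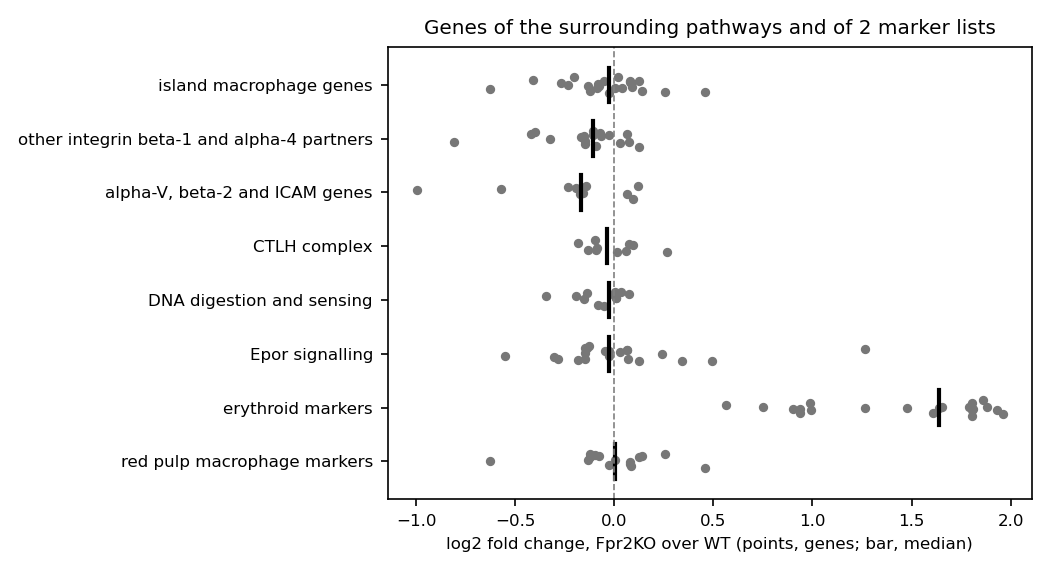
Log2 fold change, Fpr2KO over WT by edgeR (horizontal axis), of each gene tested in the 6 pathway lists and in the erythroid and red pulp macrophage marker lists, with a bar at the median of each list. The medians of the pathway lists lie between -0.17 and -0.03, that of the erythroid markers at 1.64.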

How the data were processed

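Gene expression was measured in 10 libraries of F4/80-enriched mouse splenic cells, 5 Fpr2KO and 5 WT, grouped by genotype and numbered by title. The authors deposited raw counts of reads per Ensembl gene, not normalised. HTSeq 0.10.0, FastQC 0.10.1 and the builds mm10 and GRCm38 are named per the submitters' processing notes. No source used here names the aligner, the strand setting, the handling of reads with several matches or the annotation release. Positions and symbols came from GENCODE M21 of GRCm38, which matched 52133 of the 55414 identifiers. The table had 0 rows that were no gene. Within groups, 20 pairs of libraries differed by a chi-square per degree of freedom of 11.2 to 60.9, so all libraries were kept.

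In R 4.3.3, genes were kept by filterByExpr, scaled by TMM and tested by edgeR 4.0.16 (glmQLFit with robust=TRUE, glmQLFTest, two-sided, no covariate), with Benjamini-Hochberg adjustment over all 14669 genes tested, a threshold of 0.05, and the SE taken as the fold change over the square root of F. The fit was tested on simulated data. CPM used TMM-adjusted library sizes, and log2 CPM a prior count of 2. Correlations used 100000 permutations within groups. Alternatives were RLE and upper-quartile scaling, other filters, DESeq2 1.42.0, limma 3.58.1 (voom), leaving out each library, a replicate block, an erythroid covariate and, added after seeing the data, leaving out Fpr2KO libraries 4 and 5. Named genes are the 8 genes, Fpr2, the 4 smallest p-values of each pathway list, the 3 highest in mean CPM of each marker list, and the 3 genes most like each of the 8 (coding, mean log2 CPM of at least 3). Of the markers, those a result turns on are named, and 3 of the genes most like the 8 are not reported here. The 8 genes and all lists were chosen with earlier results of these data known. Low counts limit the precision of Icam4, with 124 counts in Fpr2KO and 46 in WT. So does its spread between libraries beyond counting, which edgeR estimated at 30.5%.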

Additional observations from a re-analysis of the deposited data

Results flagged for a closer look

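In 36 groups of 5 libraries (8 genes and 10 marker scores in 2 genotypes), 3 held a library far from the other 4, where chance flags about 1 in 20 groups. Among WT libraries, Vcam1 was 1558 CPM in replicate 1 and at least 2192 CPM in the others. Epor was 5.6 CPM in the same WT replicate 1 and at least 9.54 CPM in the other WT libraries. Among Fpr2KO libraries, the mean log2 CPM of red pulp macrophage markers was 8.548 in replicate 4 and at least 8.78 in the others.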

How the results depend on the processing

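Icam4, Epor, Itga4 and Itgav kept their directions under every alternative that gave a value. None of the 8 genes passed in the edgeR and limma fits, and DESeq2 called 1, Icam4 (log2 fold change 1.40). That call was made on the filtered genes, a set that Icam4 entered through the Fpr2KO group, where it is high. The strict filter left Icam4 out, so it has no value there. Vcam1, with a fold change near 1, changed sign with upper-quartile scaling (0.0159), limma voom (0.000939) and without Fpr2KO libraries 4 and 5 together (0.111), and ran from -0.103 to 0.0709 when libraries were left out one at a time. Maea ran from -0.0725 to 0.00648 and Dnase2a from -0.0202 to 0.0529 when libraries were left out one at a time. Dnase2a was -0.0348 without Fpr2KO libraries 4 and 5, and with the erythroid covariate Itgb1 was 0.0733 and Maea 0.0478. The cause of these changes was not tested. Leaving out 1 library gave 0.267 to 0.48 for Epor, 1.22 to 1.67 for Icam4 and -0.407 to -0.275 for Itga4. The erythroid score difference was 1.3 to 2.04 without 1 library, with an unadjusted exact permutation p of at most 0.0317; adjustment over the 10 lists was not repeated there. The count of all genes past the FDR, 10, became 62 with no filter, 185 with DESeq2, 64 with the replicate block and 5 with the erythroid covariate. It ran from 8 to 51 when libraries were left out one at a time, with 51 without WT library 5 and 26 without WT library 4 or Fpr2KO library 2. Replicate numbers carry no stated pairing, and same-numbered libraries had correlations of deviations from -0.321 to 0.363. With the replicate block the 8 genes kept their directions and 0 passed (Icam4 1.38 with FDR = 0.0864, Epor 0.414 with an unadjusted p of 0.0562, against 0.0358 without the block, Itga4 -0.33 by edgeR). In 2 of 5 cases an Fpr2KO library correlated best with the WT library of its own number.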

Other observations

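Markers of further cell types of the spleen were also measured. Of 10 platelet and megakaryocyte genes tested, 10 had lower estimates in Fpr2KO and 0 passed the FDR by edgeR, with 4 at an unadjusted p under 0.05 and a median log2 fold change of -0.57. The platelet chemokine gene Ppbp averaged 6.43 ± 1.91 CPM in Fpr2KO and 12.9 ± 3.53 CPM in WT (SD, n = 5 each). Summed platelet markers lay between 46.5 and 62.5 CPM in Fpr2KO libraries and between 55.8 and 82.3 CPM in WT libraries. Of 9 T cell genes, 8 had higher estimates, 0 passed the FDR by edgeR and 0 an unadjusted p under 0.05, with sums of 162.8 to 193.7 CPM in Fpr2KO and 142.3 to 190.4 CPM in WT. Of 9 B cell genes, 8 had higher estimates, 3 at an unadjusted p under 0.05 and 0 past the FDR by edgeR. Of 8 dendritic cell genes, 6 had higher estimates, with a median of 0.02, sums of 684.3 to 897.9 CPM in Fpr2KO and 675 to 890.9 CPM in WT. Of 8 endothelial genes tested, 7 had lower estimates, and of 9 stromal genes 7, with medians of -0.24 and -0.06. None of the dendritic, endothelial and stromal genes passed the FDR by edgeR, and 1 stromal gene was lower at an unadjusted p under 0.05. Red pulp macrophage markers had a median of 0.00 and a score difference of 0.003 (SE 0.10, exact permutation p = 1, n = 5 each).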
